A study of Gallus gallus with 8 samples.

Results

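The peaks of Nrf2 CUT&Tag on chromosome 1 of the chicken (Gallus gallus, build galGal6) were followed along the chromosome in 8 broiler liver samples, each with its own deposited peak list. All peaks on chromosome 1 were taken, whatever their score or width. There were 11099 of them among 66669 peaks in the 8 lists (16.6%). Merging every overlapping or touching peak, across lists, gave 5265 regions of 30246 in the whole genome (17.4%). The last peak ended at 197607089 bp.

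Nrf2 is a transcription factor that is held back by Keap1, its repressor in the cytoplasm, and released under oxidative or electrophilic stress. It then pairs with small Maf proteins on antioxidant response elements and raises genes for detoxification, glutathione synthesis and iron and haem handling, a programme long studied in liver. In CUT&Tag an antibody against the protein guides a transposase, which cuts and tags the DNA nearby, and a peak caller then marks where tagged fragments pile up. Chromosome 1 is the largest chicken macrochromosome. Such chromosomes carry fewer genes per length than the microchromosomes.

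Both groups were broiler liver. The 4 HT samples carry high temperature as their treatment. For the 4 PT samples one label field names phloretin, an apple polyphenol, and another describes them as normal. The protocol field of all 8 samples gives the high temperature treatment, so what the PT birds received is not settled by the labels, and results are given as HT against PT. Age, sex, dose, duration and whether 1 bird or several gave each sample were not given in the sources used here. Without read counts in the lists, the depth of each sample is unknown and no counting interval can be given. Each peak has a score from the authors' caller, from 40 to 3100 over all lists, whose scale is not stated. Scores are used here to order peaks within 1 list, and are printed for the named regions. With their scale not stated, printed scores cannot be compared between lists or groups. A score percentile is the percent of the peaks of the same list, over all chromosomes, that score no higher.

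The 4 lists of a group were not independent of each other on chromosome 1. Where 2 PT lists each had a single peak in a region, both peak ends were the same to the base in 60.8% to 83.6% of cases (6 pairs). In HT pairs this was 53.7% to 72.0% (6 pairs). In the 16 pairs of 1 PT and 1 HT list, 0 peaks had the same ends. The reason for the shared ends was not tested. The SDs below describe the spread among these lists, which may be technical and smaller than that between birds. The exact p-values below treat every list as an independent unit, which the shared ends put in doubt. They show only how far apart the lists of PT and HT lie, and cannot be read as significance for a difference between birds.

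Chromosome 1 had more peaks per list in HT than in PT, but it made up a smaller part of each HT list. The PT lists 1 to 4 held 1222, 950, 1357 and 1249 chromosome 1 peaks, and the HT lists 1 to 4 held 1521, 1633, 1445 and 1722. Every HT list was above every PT list. The means were 1194 ± 173 in PT and 1580 ± 122 in HT (SD, n = 4 lists each), a ratio of 1.32 (exact two-sided permutation p = 0.0286, the least possible with 4 lists against 4; p = 0.04 after Benjamini-Hochberg adjustment for 7 tests). Leaving out PT list 2, HT list 2 or HT list 4 took this exact permutation p to 0.0571, though the lists left still did not overlap. With groups of unequal size this p can rise without any overlap. The peaks covered 650.4 ± 87.9 kb of the chromosome in PT and 893.7 ± 60.1 kb in HT (exact permutation p = 0.0286, adjusted p = 0.04, n = 4 lists each).

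As a share of the list the order was the opposite, and the spread within a group was very small. Chromosome 1 took 18.8%, 18.6%, 18.6% and 18.8% of the peaks of PT lists 1 to 4. It took 15.5%, 15.2%, 15.3% and 15.5% of HT lists 1 to 4. The groups did not overlap. The difference was -3.33 percentage points (HT minus PT), with SDs of 0.151 points among the PT lists and 0.128 among the HT lists (exact permutation p = 0.0286, adjusted p = 0.04, n = 4 lists each). The shared peak ends may make these SDs too small to measure the difference against. The HT to PT ratio of 1.32 was the lowest of all numbered chromosomes, the next being 1.43 on chromosome 8 and 1.45 on chromosome 5. It was below 1 on W alone, at 0.587. On the numbered chromosomes alone, without Z, W and scaffolds, the share was 22.8 ± 0.578% in PT and 19.1 ± 0.216% in HT.

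The direction of the count therefore depended on list length. With the 5120 highest-scoring peaks of every list, the length of the shortest, chromosome 1 held 997, 950, 985 and 988 peaks in PT and 754, 766, 752 and 776 in HT. All HT lists were now below all PT lists, with a mean difference of -218 peaks and a ratio of 0.778 (exact permutation p = 0.0286, n = 4 lists each). The covered length turned with it, to 533.7 ± 11.9 kb in PT and 458.4 ± 5.47 kb in HT. In lists of equal length the count and the share of the list are the same measure, so this count is no separate result. PT list 2 stayed whole, while HT list 4 was cut from 11141 peaks, so the lowest score kept differed between lists.

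**Figure D1:**
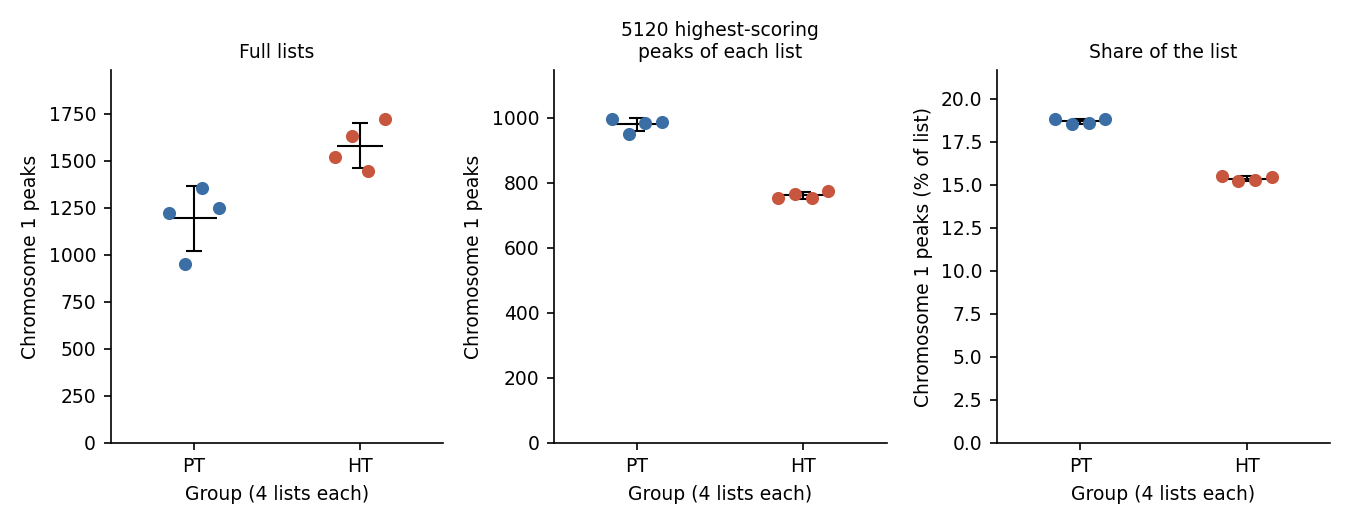
Chromosome 1 peaks per list in PT and HT (points: the 4 lists of a group; bars: mean and SD), in the full lists, in the 5120 highest-scoring peaks of each list, and as percent of the list. HT is higher in the first panel (1445 to 1722 against 950 to 1357 peaks) and lower in the other two.

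Chromosome 2, the next largest, was the closest comparison. It held 752 ± 144 peaks in PT and 1112 ± 120 in HT, a ratio of 1.48 against 1.32 on chromosome 1. Of the peaks on both chromosomes, chromosome 1 held 62.1%, 63.1%, 60.3% and 60.5% in the PT lists and 58.9%, 58.6%, 59.7% and 57.9% in the HT lists. All HT lists were below all PT lists (difference -2.76 points, exact permutation p = 0.0286, adjusted p = 0.04, n = 4 lists each). Without HT list 2 or HT list 4 the exact permutation p was 0.0571, again with no overlap of the lists left.

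The share of chromosome 1 differed more among high-scoring than among low-scoring peaks. With each list cut by score into 10 bins of equal size, all PT lists were above all HT lists in 5 bins, namely the first, the second and the fourth to the sixth. In the bin with the highest scores, chromosome 1 held 20.1%, 19.1%, 19.7% and 18.5% of the peaks in PT. In HT it held 13.6%, 14.3%, 14.5% and 14.5%. The groups did not overlap there. In the bin with the lowest scores they did, at 14.7% to 17.8% in PT and 13.1% to 16.2% in HT. PT chromosome 1 peaks stood slightly above the middle of their lists and HT peaks slightly below. The mean score percentile was 51.0, 51.3, 51.5 and 50.2 in the PT lists and 48.2, 49.2, 48.8 and 49.0 in the HT lists (difference -2.21, exact permutation p = 0.0286, adjusted p = 0.04, n = 4 lists each). The difference was -2.29 with lists of equal length.

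**Figure D2:**
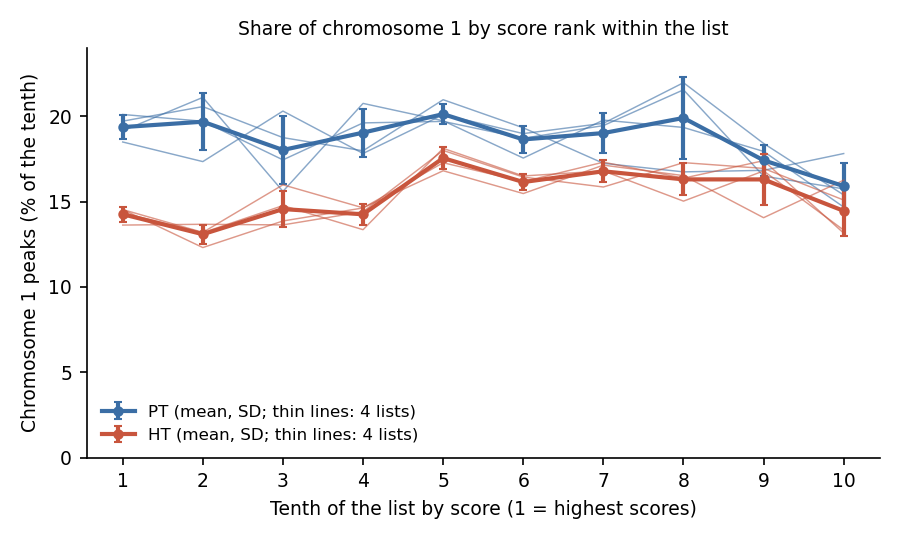
Percent of peaks that lie on chromosome 1 in each of 10 equal bins of a list, ordered by score (thin lines: single lists; points and bars: mean and SD of 4 lists). PT lies above HT most clearly in the high-scoring bins, with 19.4% against 14.3% in the first, and the 2 groups overlap in the last.

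Peaks were found along the whole chromosome in both groups. Each of the 198 windows of 1 Mb held at least 1 peak of a PT and of an HT list. The median window had a mean of 5.25 peaks per PT list and 7 per HT list. In 10 Mb windows, PT means ran from 44 to 91.2 peaks per list and HT means from 52 to 129. The mean was higher in HT in 20 of 20 windows, by 1.02 to 1.76 times with a median of 1.33. Every HT list exceeded every PT list in 9 of the 20 windows (45.0%), where 71.0% of all 124 such windows on the chromosomes did so. The windows on chromosome 2 gave 9 of 15.

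Counted relative to the length of the list, 0 of the 20 windows had every HT list above every PT list, against 20.2% of the windows on all chromosomes. This was not particular to chromosome 1. Chromosomes 2, 3, 4 and 5 gave 0 of 15, 0 of 12, 0 of 10 and 0 of 6 windows. The reverse, every PT list above every HT list, held in 8 of 20 windows of chromosome 1 (40%), against 18.5% on all chromosomes. On chromosomes 2, 3, 4 and 5 it held in 4 of 15, 2 of 12, 2 of 10 and 2 of 6. With equal list lengths, every PT list had more peaks than every HT list in 9 windows of chromosome 1 and the reverse held in 0. Counts for the other chromosomes in that setting are not given here, so these have no background.

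The ratio of HT to PT varied along the chromosome. It was highest from 170 to 180 Mb, where PT lists 1 to 4 had 51, 36, 54 and 55 peaks and HT lists 1 to 4 had 96, 85, 78 and 86, a ratio of 1.76. The groups did not overlap there. The windows from 50 to 60 Mb (44 ± 10.2 against 67.2 ± 7.85, ratio 1.53) and from 150 to 160 Mb (63.5 ± 7.77 against 95.2 ± 6.13, ratio 1.5) followed in the order of ratios, again with no overlap. Relative to list length, the groups overlapped in all 3 of these high-ratio windows. On that scale the HT mean was higher from 170 to 180 Mb, but lower from 50 to 60 Mb and from 150 to 160 Mb. The window from 0 to 10 Mb had the most peaks in both groups, with 86, 84, 110 and 85 in PT and 126, 129, 131 and 130 in HT, and a ratio of 1.41. The lowest ratio was that of 60 to 70 Mb, with 55, 44, 55 and 49 peaks in PT and 50, 62, 43 and 53 in HT, a ratio of 1.02 with the groups overlapping. The windows from 10 to 20 Mb (ratio 1.08) and from 90 to 100 Mb (ratio 1.10) overlapped too. Relative to list length all 3 of these windows were higher in PT without overlap.

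**Figure D3:**
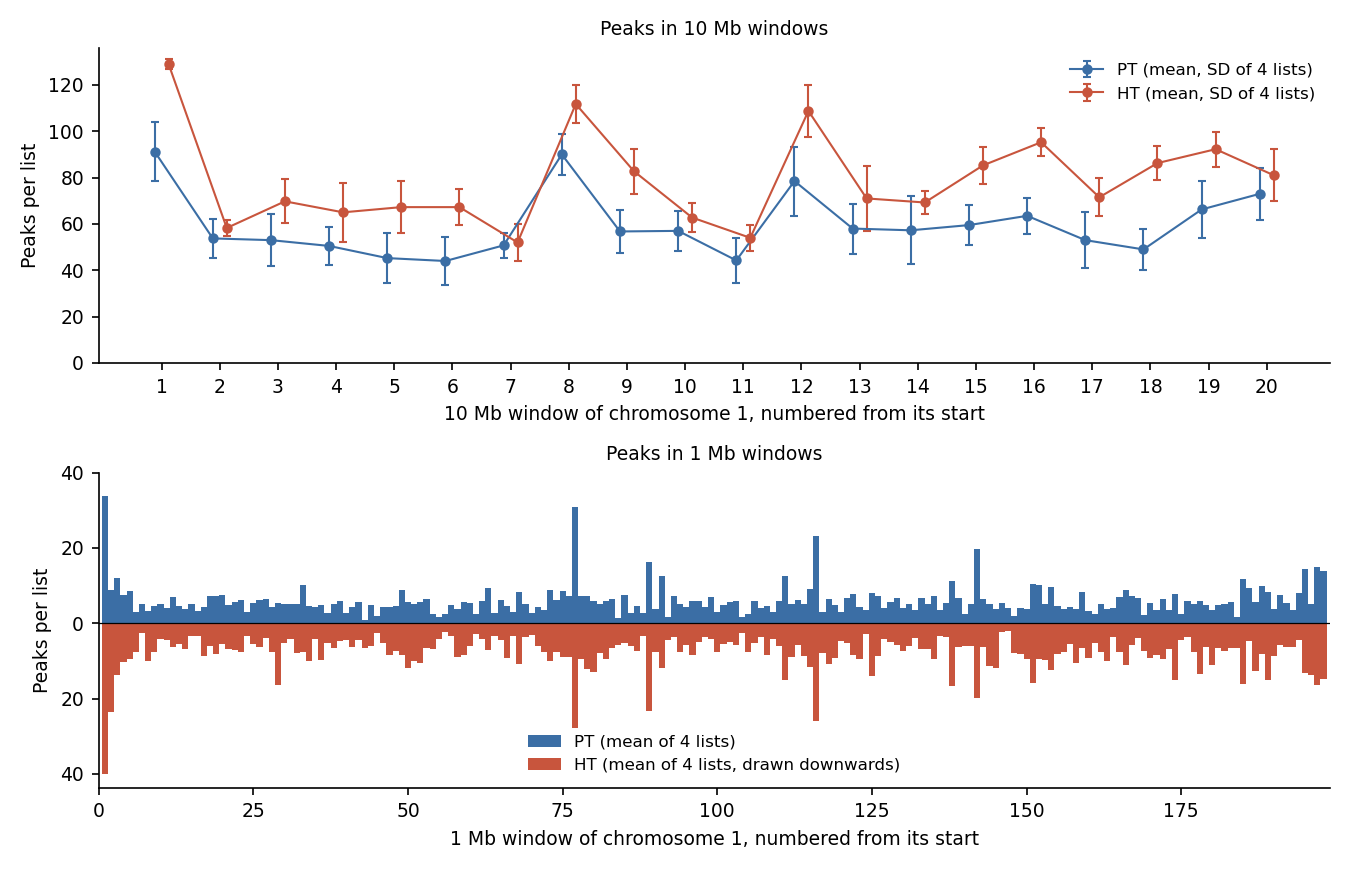
Peaks per list along chromosome 1 in 10 Mb windows (upper panel, mean and SD of 4 lists per group) and in 1 Mb windows (lower panel, mean of 4 lists, PT upwards and HT downwards). HT means lie above PT means in all 20 large windows, and the same few 1 Mb windows stand out in both groups.

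A few short stretches were dense in both groups. The windows named here are the 4 with the most peaks per list in PT and the 4 in HT, which make 5 in all. The window from 0 to 1 Mb had 31, 37, 32 and 35 peaks in the PT lists and 42, 43, 41 and 34 in the HT lists. The window from 76 to 77 Mb had 31 peaks in each of the 4 PT lists and 29, 30, 25 and 27 in the HT lists. It was the single one of these with every PT list above every HT list in raw peaks. The window from 115 to 116 Mb had 23.2 ± 3.4 peaks in PT and 26 ± 2.94 in HT, and that from 141 to 142 Mb 19.8 ± 4.19 and 19.8 ± 3.20. These means lie well above the medians of 5.25 and 7. The window from 88 to 89 Mb, just short of the choice in HT, had 16.2 ± 2.06 and 23.2 ± 1.89.

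The window from 1 to 2 Mb, next to the dense chromosome start, differed in the other direction. It had 10, 8, 12 and 5 peaks in PT and 20, 26, 25 and 23 in HT, a ratio of 2.69 with no overlap. Relative to list length it was still higher in every HT list than in every PT list. In the other 4 dense windows every PT list was above every HT list on that scale.

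The dense stretch from 76 to 77 Mb had its own pattern of occupancy. Its 58 regions lay between 76002935 and 76607719. Only 4 of them (6.90%) came from a single list, against 36.0% to 42.9% in the other 4 dense windows and 58.5% of all chromosome 1 regions. The dense windows were picked by peaks per list, to which a region of several lists adds more. Part of the difference from 58.5% therefore follows from the choice. Of the 58 regions, 21 were held by all 4 PT lists and no HT list, and 14 by all 4 HT lists and no PT list. Over all of chromosome 1 these classes made up 8.19% and 11.8% of the regions. Directly after this dense stretch came the longest stretch of chromosome 1 without a peak in any list, chr1:76607720-77124533, of 516.8 kb. The median distance between neighbouring regions was 23.1 kb. What the sequence is in these stretches is not analysed here.

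Across 197 whole windows of 1 Mb, the mean peak numbers of PT and HT went together (Pearson r = 0.779, Spearman rho = 0.432). This is a description of windows that share the same 8 lists. The numbers of regions held by all lists of a single group went together less closely (Pearson r = 0.409, Spearman rho = 0.205, 197 windows).

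At the level of single regions, the groups mostly marked different places. Of the 2454 chromosome 1 regions with a PT peak, 308 also had an HT peak (12.6%), which is 9.87% of the 3119 regions with an HT peak. Over the whole genome these shares were 15.8% and 10.7%, so on the HT side chromosome 1 was near the background. Regions found in all 4 lists of a group were shared more often. Of 589 such PT regions, 158 had an HT peak (26.8%, against 34.2% over the whole genome). Of 779 such HT regions, 160 had a PT peak (20.5%, against 21.1%). Shared bases over bases covered by either list averaged 0.450 between PT lists (0.349 to 0.573, 6 pairs), 0.449 between HT lists (0.407 to 0.568, 6 pairs) and 0.0915 between a PT and an HT list (0.0798 to 0.101, 16 pairs). On chromosome 2 the between-group value was 0.0621. The within-group values include the peaks with identical ends described above.

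The largest class, 3082 regions or 58.5%, was found in 1 list only, 1431 of them in a PT list and 1651 in an HT list. This was near the 55.9% of all regions of the genome, and chromosome 2 had 62.0%. A further 1080 were found in exactly 4 lists, and most of these belonged to all lists of a group. The class found in the 4 HT lists alone had 619 regions (11.8%, against 14% of all regions of the genome). The class of the 4 PT lists alone had 431 (8.19%, against 6.83%). All 8 lists held 103 (1.96%, against 2.41%). There were thus 1.44 HT-only regions for each PT-only region on chromosome 1, against 2.21 on the rest of the genome and 1.8 on chromosome 2. With equal list lengths the order turned, to 236 HT-only and 335 PT-only regions on chromosome 1. Counts for the whole genome in that setting are not given here. Whether the turn is particular to chromosome 1 is therefore not known. Regions in which no 2 lists shared peak ends numbered 21, 4 and 5 in the 3 classes.

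**Figure D4:**
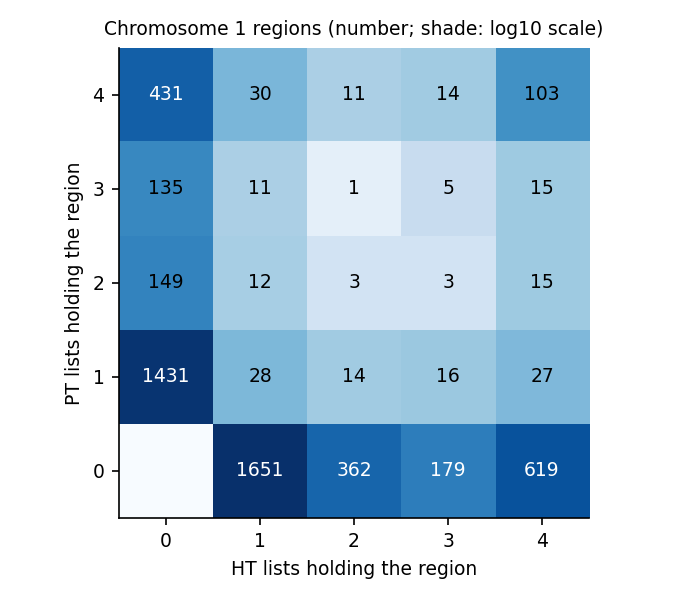
Number of chromosome 1 regions by how many PT lists (vertical) and HT lists (horizontal) hold them, with the shade on a log10 scale. Regions gather along the 2 edges, in 1 list (1431 and 1651) or in all 4 lists of 1 group (431 and 619), and in the corner of all 8 lists (103).

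With more HT-only than PT-only regions in all, HT-only regions were the more numerous in 16 of the 20 windows of 10 Mb, the fewer in 3 and equal in 1. There were 43 HT-only and 18 PT-only from 170 to 180 Mb, and 17 and 23 from 60 to 70 Mb. Whether the classes differ in their spread along the chromosome was not tested. The distance from each group-only region to the other group was also measured. The nearest region of the other group lay a median of 22.6 kb from an HT-only region and 18.4 kb from a PT-only region, and within 1 kb for 5.82% and 6.50% of them. The median gap between neighbouring regions was 49.1 kb for PT and 39.4 kb for HT. Such a gap lies between neighbours, while a nearest distance is the shorter of those to either side, so they are different measures. Whether group-only regions lay nearer to or further from the other group than random placement gives was not tested.

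Widths and ranks went with occupancy. Regions of a single list were 470 bp wide at the median in PT and 472 bp in HT, with median percentiles of 38.0 and 37.2. PT-only regions were 520 bp and HT-only regions 523 bp wide, with median percentiles of 58.5 and 53.4. Regions of all 8 lists were 1217 bp wide, with a median percentile of 81.9, though merging peaks of more lists widens a region by itself. Rank is tied to occupancy too. No list held a score below 40, so a region near that score can be missing from some lists. Where a list had several peaks in a region, the highest gave its rank. The median chromosome 1 peak was 474, 478, 478 and 493 bp wide in the PT lists and 500, 490, 498 and 490.5 bp in the HT lists. These groups overlapped (difference 13.9 bp, exact permutation p = 0.0857, adjusted p = 0.1, n = 4 lists each). Without PT list 4 the exact permutation p was 0.0286, and without any other single list it was 0.0857 to 0.114. The difference was -7.88 bp in the higher-scoring 50% of each list and -33.4 bp with equal list lengths.

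The HT-only regions with the highest ranks are given next, with the authors' scores. First was chr1:1014773-1015244, 472 bp wide, in the window from 1 to 2 Mb that was rich in HT peaks. Its scores in HT lists 1 to 4 were 171.52, 178.97, 173.42 and 195.96, at a mean percentile of 98.3. It was followed by chr1:192269603-192269839, with scores of 164.79, 135.61, 156.85 and 123.64. The third, chr1:90772400-90773575, was 1176 bp wide, had the same ends in all 4 HT lists and scored 143.04, 149.43, 131.65 and 121.19.

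Further HT-only regions were chr1:100092913-100093120 (scores 104.15 to 178.8), chr1:115158273-115158522 (110.72 to 191.01), chr1:837709-838635 (105.01 to 142.36), chr1:143041355-143041744 (98.13 to 207.88) and chr1:184241881-184243457 (106.83 to 121.62). Widths of these 8 regions ran from 208 to 1577 bp, with mean percentiles of 95.4 to 98.3. Of the 8, 1 had identical peak ends in each HT list.

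The PT-only regions with the highest ranks were mostly narrow. The first, chr1:172115526-172115785, was 260 bp wide and scored 397.91 in PT lists 1, 2 and 3 and 379.28 in list 4. The second, chr1:19662627-19662846, was 220 bp wide and scored 293.67, 293.67, 293.67 and 287.11. The third, chr1:112948575-112948979, scored 184.35, 246.95, 230.78 and 264.01. Equal scores to the second decimal stood beside equal peak ends in the first 2 regions. Further regions named below also had the same score in 2 PT lists. These scores were 210.84 at chr1:73323033-73323240, 195.92 at chr1:77545746-77545966 and 171.15 at chr1:171363448-171363653.

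Then came chr1:33413903-33414499 (scores 204.73 to 225.93), chr1:73323033-73323240 (202.48 to 210.84), chr1:77545746-77545966 (165.26 to 195.92), chr1:171363448-171363653 (142.75 to 175.78) and chr1:28207071-28207280 (142.89 to 170.35). Widths ran from 206 to 597 bp, and 7 of the 8 regions had identical peak ends in each PT list. Over all regions of the 2 classes the gap was smaller, with identical ends in every list in 62.2% of PT-only and 51.7% of HT-only regions. The mean percentiles of the 8 named PT-only regions were 97.0 to 99.3. How duplicate reads were treated was not given in the sources used here, and how a score relates to the amount of bound protein was not tested.

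The 103 regions held by all 8 lists were unevenly placed. They lay in 51 of the 198 windows of 1 Mb. The first 1 Mb alone held 15 of them. The 5 windows of 1 Mb named above held 34 (33.0%), against 5.68% of all chromosome 1 regions. Those windows were picked by peaks per list, to which a region of all 8 lists adds in every list, so part of this share follows from the choice. The window from 88 to 89 Mb, not among them, held 7. The first 10 Mb of the chromosome held 19.4% of them and the last 10 Mb 3.88%, against 6.46% and 7.08% of all regions. The share of peaks near the ends did not separate the groups. The outer 10 Mb at both ends took 15.1 ± 0.909% of the chromosome 1 peaks of a PT list and 15% ± 0.858 of those of an HT list, and these ranges overlapped (exact permutation p = 0.886, n = 4 lists each).

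Regions of all 8 lists often had neighbours of the same kind. Taking those up to 20 kb apart together, 36 of the 103 (35.0%) fell into 12 runs. The longest runs were 6 regions in chr1:951048-997256, of 46.2 kb, and 5 regions in chr1:90741120-90766913, of 25.8 kb. Both rules, the 20 kb and the stretch described next, were chosen after the values were seen.

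The run of 5 regions held 3 of the 8 highest-ranked regions of all lists. The first of these, chr1:90755417-90757306, is 1890 bp wide and scored 666.81, 767.31, 719.33 and 751.31 in PT lists 1 to 4, the highest chromosome 1 score of each. In HT lists 1 to 4 it scored 998.36, 675.43, 1049.87 and 612.55, the highest of the chromosome in lists 1 and 3. Its mean percentile over the lists was 99.8. Before it, chr1:90750041-90751494 scored 453.55 to 508.82 in PT and 453.57 to 711.14 in HT. After it, chr1:90766521-90766913 had scores of 519.07 to 542.72 in PT and 594.15 to 634.49 in HT.

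With peaks merged only where they overlapped or touched, the flanks of this run belonged to 1 group each. On the left, chr1:90739922-90740920 was held by all 4 PT lists, with scores of 73.34, 74.93, 73.34 and 72.28, and by no HT list. Beside it lay chr1:90739274-90739523, held by PT lists 1, 2 and 3 with scores of 43.43, 44.27 and 45.13. These left regions lay close to the first region of all 8 lists, which began at 90741120. With peaks up to 500 bp apart merged, they would become part of it, so the left flank rests on the merging rule. On the right, chr1:90772400-90773575, the third HT-only region above, was held by no PT list. All 8 regions of the stretch lay within 34.3 kb. Between the flanks, 5 regions were held by every list.

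**Figure D5:**
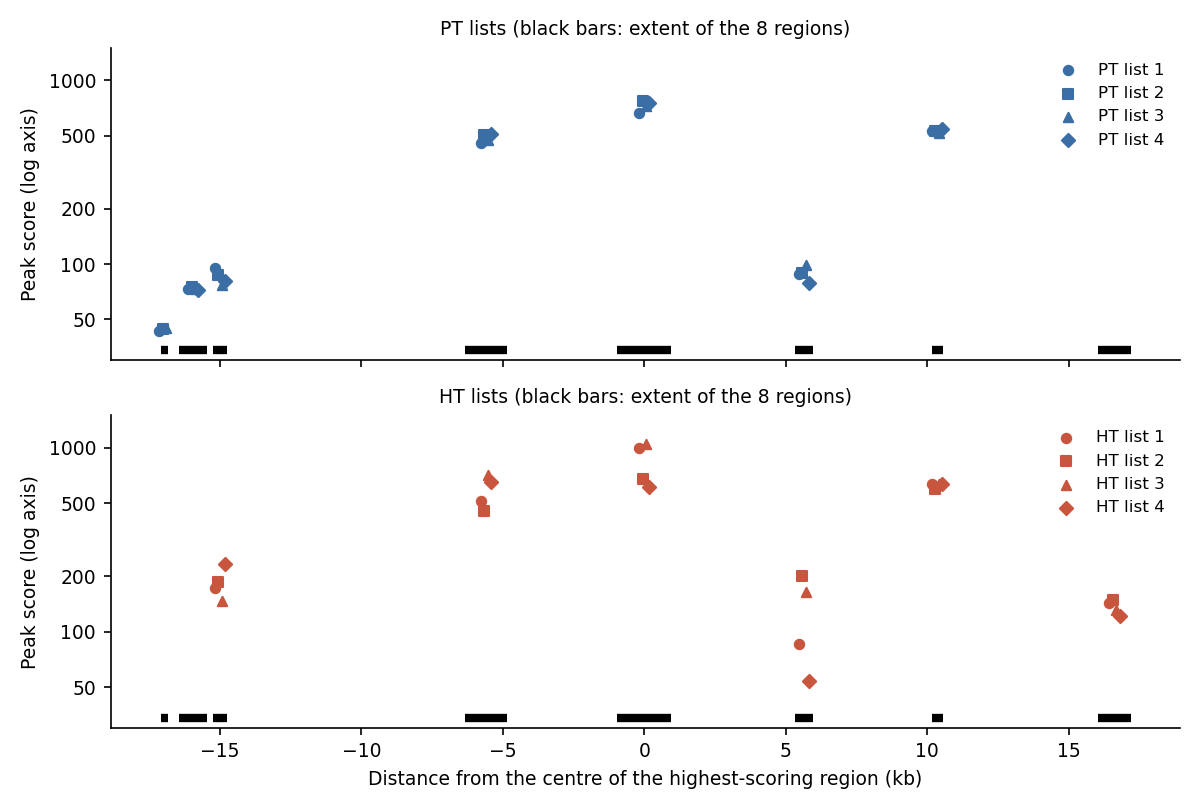
Authors' peak scores (log axis) in 8 neighbouring regions of chromosome 1 within 34.3 kb, PT lists in the upper and HT lists in the lower panel, against distance in kb from the centre of the highest-scoring region; black bars show the extent of the regions. The 5 middle regions have points in both panels, the 2 regions on the left in PT and the one on the right in HT. The scale of the scores is not stated, so their heights cannot be compared between lists or panels.

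The other high-ranked regions of all 8 lists lay apart from each other. They were chr1:154243436-154247585 (scores 468.86 to 558.36 in PT and 572.89 to 661.82 in HT), chr1:72594480-72596211 (447 to 669.66 and 518.69 to 749.06), chr1:17842562-17846173 (373.33 to 402.28 and 432.22 to 549.67), chr1:75952873-75954045 (334.07 to 362.23 and 335.95 to 421.15) and chr1:117412060-117416099 (414.89 to 456.43 and 190.57 to 405.81). Together the 8 highest-ranked regions ranged in width from 393 to 4150 bp.

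To set ranks of PT and HT beside each other, lists of equal length were used. All 8 of these shorter lists held 76 chromosome 1 regions. The median percentile of their peaks was 86.6 in PT and 91.3 in HT. In 32 regions (42.1%) every HT list ranked the region higher than every PT list, against 34.1% of such regions of the whole genome. The reverse held in 8 (10.5%), against 15.3%.

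The widest merged region, chr1:43517763-43525079, was 7317 bp wide and held by all 8 lists, with a single peak of 6775 to 7317 bp in each. Its scores were 228.2 to 340.61 in PT and 281.25 to 352.37 in HT. Next was chr1:197591089-197598352, of 7264 bp, close to the last peak. All 4 PT lists held it with peaks of 4659 to 4782 bp. Of the HT lists only list 2 held it, with a wider peak of 5376 bp and a score of 43.45, near the minimum of 40. The third, chr1:141357545-141364564, of 7020 bp, lay in the dense window from 141 to 142 Mb and was held by all 8 lists with 13 peaks. Genes at the named regions are not reported, since the gene table at hand is of another assembly than galGal6.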

How the data were processed

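The authors deposited 1 peak list per sample, with chromosome, start, end, a name and a score and no header. Reads were processed with cutadapt 1.9.2 and Bowtie2 2.2.4, per the submitters' processing notes. The peak names in the deposited lists begin with MACS. The caller's version and settings, the antibody, duplicate handling and the scale of the deposited score were not given in the sources used here. Starts were counted from 1.

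Peaks of chromosome 1 were merged where they overlapped or touched (Python 3.11.15, pandas 2.3.3, numpy 2.4.6). A region counted as held by a list with any overlapping peak. Groups came from the sample titles. A total of 7 measures were tested over lists by an exact two-sided permutation of 70 relabellings, adjusted together by Benjamini-Hochberg, at a threshold of 0.05. Windows were 10 Mb, the last being shorter, and 1 Mb. Regions named are the 8 of highest mean percentile in each class, with the 3 highest and 3 lowest 10 Mb windows by ratio, the 4 densest 1 Mb windows per group and the 3 widest regions. The members and lists were chosen with earlier results of these data known. The counting was checked on simulated lists.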

Additional observations from a re-analysis of the deposited data

Results flagged for a closer look

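In the window from 141 to 142 Mb, PT list 3 held 26 peaks where the other 3 PT lists held 17 to 18. Its gap to the nearest list was a larger part of the group's range than Dixon's limit for 4 values allows. There were 36 groups of 4 values looked at in this way, and chance marks about 1 in 20.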

How the results depend on the processing

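Of 192 values under other settings, 157 gave the same direction and the same call, or a count within 1.5 times. Leaving out 1 list made up 104 of the 192, with 94 the same, so the remaining settings changed the results more often. With the higher-scoring 50% of each list, the HT minus PT difference was 145.5 peaks (exact permutation p = 0.0571), -7.88 bp in median width and 1.32 points in the outer 10 Mb. There, 5 windows had more peaks in every HT list, and HT-only, PT-only and all-list regions numbered 265, 206 and 61. With equal list lengths the differences were -218 peaks, -75.3 kb, -33.4 bp and 1.49 points, with 0 such windows and 236 HT-only regions. Without the outermost 1 Mb the outer share differed by 0.726 points. A 50% overlap left 55 all-list regions, 5 Mb windows gave 2.5% with a higher share in HT and 20 Mb windows 70% in PT. Without shared peak ends, a setting chosen like the numbered-chromosome share and the removal of the dense windows after seeing the data, 21 HT-only, 4 PT-only and 5 all-list regions were left, fewer by construction. With equal list lengths the peak count and the share of the list are the same measure, as stated above. Lists cut to 50% hold fewer peaks to form regions. What else lay behind the changes was not tested.

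With a replicate block the differences were 385.75 peaks, 243.3 kb, -3.33, -2.21 and -2.76 points, each at an exact p of 0.125, the smallest a sign-flip of 4 pairs allows. To look at pairing, the share of each list in 198 windows of 1 Mb was taken as its deviation from the mean of its group. These deviations, not the shares themselves, correlated at -0.0628 to 0.0399 between same-numbered lists. Of the PT lists, 0 of 4 correlated best with the HT list of their own number. The highest correlation of the deviations of a PT list with those of any HT list was itself low, at 0.0644 to 0.212. This comparison therefore cannot tell whether the numbers pair the lists. Leaving out each list in turn gave 304.25 to 439.9 peaks, -3.16 to -2.24 points of the chromosome 1 and 2 peaks, 11.6 to 17.96 bp and -0.466 to 0.244 points in the outer share. The depth of the samples is unknown, so how it bears on list length was not tested.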
